A study of Homo sapiens with 6 samples.

Results

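IFI27, IFI6, XAF1, IFI35 and NMI are genes of the interferon (IFN) response whose products are linked to mitochondria, to apoptosis or to signaling by STAT proteins. IFI27L1 and IFI27L2 were included as relatives of IFI27. All 7 were found by their symbols among the 37887 gene symbols in the count table. They were selected on earlier results of the same comparison, in which IFI27 and its partners were lower after IRF1 silencing, so their levels are given as a description and without a test. RNA-seq was performed on BT-549 cells, an established human triple-negative breast cancer (TNBC) cell line, with 3 control and 3 IRF1shRNA samples. Per the titles, which name no treatment, the controls carried a control shRNA and the IRF1shRNA samples an shRNA against IRF1. The text on the series instead names cells with a stable, doxycycline-inducible (tet) IRF1 shRNA vector that were given 0.1% DMSO or doxycycline at 500 ng/ml. Doxycycline is recorded for IRF1shRNA samples only, and its effect and that of the hairpin cannot be told apart. The hairpin used for sequencing is not named in the labels, and nothing shows whether the triplicate cultures were grown on separate days, so the spread between samples may be technical.

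IFNs bind receptors at the cell surface and activate transcription factors of the STAT and IRF families. IRF proteins bind the IFN-stimulated response element (ISRE), in which the letters GAAA recur with a short spacer, and STAT dimers bind the gamma-activated sequence (GAS). IFI27 (also ISG12A) and IFI6 (also G1P3) belong to a family of small hydrophobic proteins. IFI27 has been found at the mitochondrial membrane and linked to sensitization to apoptosis, whereas IFI6 has been linked to protection of mitochondria from apoptosis. IFI27L1 and IFI27L2 are relatives of IFI27 in the same cluster on chromosome 14. XAF1 (XIAP-associated factor) antagonizes XIAP, a protein that inhibits caspases. IFI35 and NMI (N-myc and STAT interactor) share a protein domain and bind each other.

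The promoters were examined first, since the members differ in their sequence near the start of the gene. RefSeq promoter windows (GRCh38.p14, 250 bases before to 50 after each start) were known for all 7 genes, with 2 windows each for IFI27 and XAF1. The core of the ISRE was searched as GAAANNGAAA on both strands. It was found in 3 genes (IFI27, IFI6 and NMI), and in 3.57% of the 35116 promoter windows of all genes. The matches are shown in the following stretches, in which capitals mark a core and positions count from the start at 0. The IFI6 stretch, on the minus strand of chr1:27672268-27672352, holds 3 cores that begin at −156, −115 and −93, the first pair of them with the same letters. The IFI27 stretch, from the first window and on the plus strand of chr14:94110622-94110656, holds 2 cores in opposite orientation, at −108 to −99 and −95 to −86.

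IFI6: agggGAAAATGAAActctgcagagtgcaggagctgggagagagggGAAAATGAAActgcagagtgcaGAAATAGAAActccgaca
IFI27: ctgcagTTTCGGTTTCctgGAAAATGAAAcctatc

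A core with a spacer of 1 base (GAAANGAAA), chosen after the sequences were seen, was found in XAF1, IFI35 and NMI and in 3.12% of all windows. It is capitalized below together with the ISRE core of NMI, which comes first in that stretch. XAF1 is shown from its first window (plus strand, chr17:6756028-6756057), where the core spans the start itself, from −5 to 3. The IFI35 core lies at −16 to −8 (plus strand, chr17:43006759-43006783). In NMI (minus strand, chr2:151289802-151289834) both cores read in reverse, at −163 to −154 and −145 to −137.

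XAF1: tccttgcctgcaaGAAACGAAActcaaccg
IFI35: gatttcacgGAAATGAAAgtggaag
NMI: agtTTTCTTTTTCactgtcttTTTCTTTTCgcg

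The GAS core, searched as TTCNNNGAA on both strands, was found in IFI27, IFI35 and NMI and in 7.66% of all windows. In IFI27 it lay between the 2 ISRE cores and shared bases with both (−101 to −93). In IFI35 it lay at −22 to −14 and overlapped the core with the shorter spacer. IFI27L1 and IFI27L2 held none of these letters in their windows. No binding was measured, and a match or its absence is a description of these letters only.

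**Figure D1:**
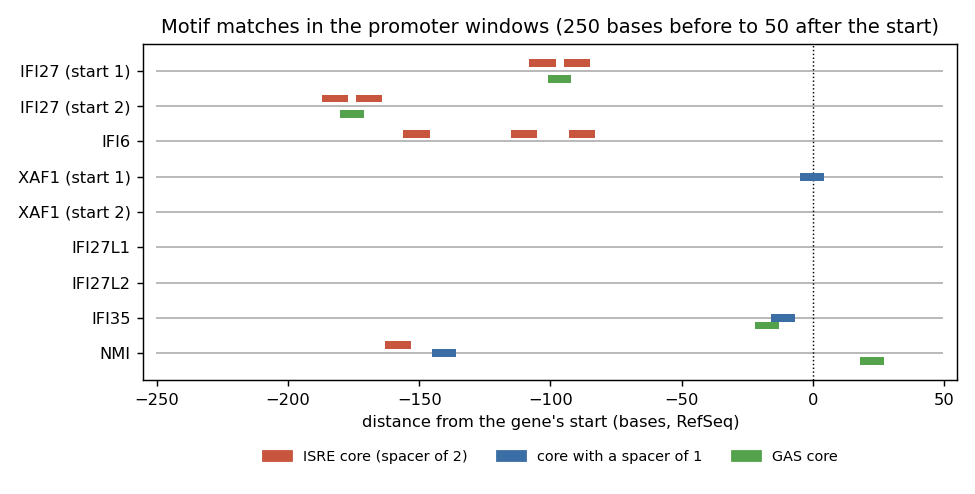
Positions of motif matches in the promoter windows of the 7 genes, in bases from the start of the gene (dotted line). Bars mark the ISRE core with a spacer of 2 bases, the core with a spacer of 1 and the GAS core, and the windows of IFI27L1 and IFI27L2 and the second window of XAF1 are empty.

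The total count per sample ranged from 55143808 (IRF1shRNA replicate 2) to 160436234 (IRF1shRNA replicate 3). Expression is given as CPM, the count scaled to the library size after TMM normalization. IRF1, the targeted gene, was at 45.3, 48.1 and 51.5 CPM in the controls and at 13.8, 14.9 and 14.6 CPM in the IRF1shRNA samples. IRF1 was thus 3.35-fold lower (log2 fold change −1.74 ± 0.06, SE; edgeR adjusted p 4.53e-13). Of the markers of BT-549 cells, VIM was at 888 to 945 CPM in the controls and 593 to 658 CPM in the IRF1shRNA samples. FN1 was at 739 to 775 and 574 to 622 CPM, respectively, whereas CDH2 overlapped, at 223 to 254 and 240 to 255 CPM. CDH1 was at 0.532 to 0.802 CPM over both groups. ESR1 was at 0 to 0.0325 CPM in the controls and 0.0729 to 0.144 CPM in the IRF1shRNA samples. It rested on 0 to 4 and 8 to 12 counts, respectively, and did not pass the filter for testing. ERBB2, which the triple-negative label concerns at the protein level, was at 47.7 to 54.8 and 35.0 to 38.1 CPM. The markers examined were 8 of breast cells and 4 of other cell types. The groups did not overlap for VIM, FN1, ESR1 and ERBB2, nor for PDGFRB, a marker of stroma (0.414 to 0.778 against 0.304 to 0.405 CPM). They overlapped for PGR (0.188 to 0.325 against 0.108 to 0.188 CPM) and for the remaining markers, among them EPCAM. Every IRF1shRNA value was below every control value for 29.5% of all genes tested. ESR1 was higher in the IRF1shRNA samples, a direction that this share does not cover. The part of the marker differences in the results was not tested. The summed level of 4 markers of leukocytes, endothelium, macrophages and stroma was 1.07 to 1.38 CPM in the controls and 0.772 to 1.26 CPM in the IRF1shRNA samples. In bulk RNA, fewer cells with a transcript and less of it per cell cannot be told apart.

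IFI27 was the gene with the lowest log2 fold change of the 18851 genes tested. The 3 controls had 43.1, 45.1 and 57.4 CPM, and the 3 IRF1shRNA samples 0.556, 0.685 and 0.650 CPM. Every IRF1shRNA sample was thus far below every control. These values rested on 5313, 5530 and 8555 counts in the controls and on 70, 38 and 107 counts in the IRF1shRNA samples. The mean was 77.0-fold lower in IRF1shRNA samples, with a log2 fold change of −6.28 ± 0.13 (SE). The remaining level, 1.298% of control, was more than 10 times the level of 3 counts in each library, which corresponds to 0.0182 to 0.0540 CPM.

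IFI6 was the most abundant of the 7 genes in both groups. It was at 281, 301 and 388 CPM in the controls and at 13.6, 14.1 and 16.2 CPM in the IRF1shRNA samples. The groups did not overlap, and the mean was 22.1-fold lower in IRF1shRNA samples (log2 fold change −4.46 ± 0.10, SE), which ranked 14 from the lowest of all genes tested. Unlike IFI27, IFI6 was still at 14.6 ± 1.41 CPM (SD, n = 3) after silencing.

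The relatives of IFI27 in the cluster on chromosome 14 differed far less between the groups. IFI27L1 (chr14:94081282-94103846) was at 4.74, 4.44 and 5.43 CPM in the controls and at 3.48, 4.0 and 3.41 CPM in the IRF1shRNA samples, with a log2 fold change of −0.44 ± 0.10 (SE). IFI27 itself (chr14:94104836-94116698) lies between both relatives. IFI27L2 (chr14:94127779-94130253, on the opposite strand) was at 5.58, 5.63 and 7.40 CPM in the controls and at 4.56, 3.21 and 3.89 CPM in the IRF1shRNA samples, with a log2 fold change of −0.66 ± 0.13. The groups did not overlap for either gene, but the closest samples of both groups lay within 0.440 CPM for IFI27L1. Coordinates of genes are those of GENCODE 29 (GRCh38).

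The makeup of the family changed with these differences. In the controls, IFI6 held 84.0 to 84.7% of the counts of the 4 genes, IFI27 held 12.5 to 12.9%, and each of the others held under 2%. In the IRF1shRNA samples IFI6 held 61.2 to 67.1% and IFI27 2.51 to 3.11%. IFI27L1 then held 14.1 to 18.2% and IFI27L2 14.6 to 20.6%, although both were lower in CPM than in the controls. The summed level of the family was 335 to 458 CPM in the controls and 22.02 to 24.2 CPM in the IRF1shRNA samples. No window of 50 bases was shared between the annotated transcripts of any of the 21 pairs of members, so a read of that length or longer could be assigned to a single member.

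**Figure D2:**
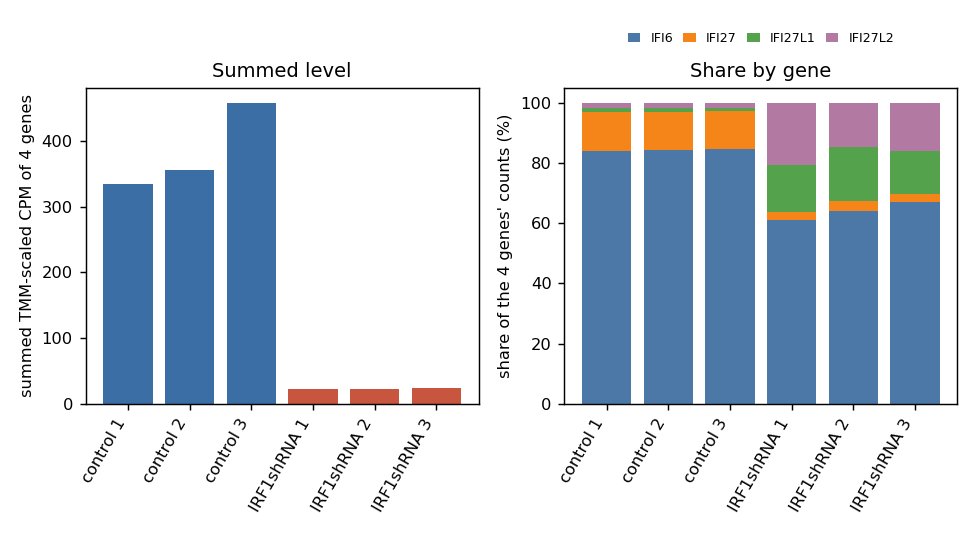
Summed TMM-scaled CPM of IFI6, IFI27, IFI27L1 and IFI27L2 in each sample (left), and the share of their counts held by each gene in percent, not scaled for gene length (right). The sum is 335 to 458 CPM in the controls and 22.02 to 24.2 CPM in the IRF1shRNA samples, and the share of IFI27 is 12.5 to 12.9% and 2.51 to 3.11%, respectively.

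XAF1, the antagonist of XIAP (chr17:6755447-6775647), was at 27.3, 29.01 and 32.3 CPM in the controls and at 5.63, 5.98 and 7.10 CPM in the IRF1shRNA samples. The groups did not overlap, and the mean was 4.74-fold lower in IRF1shRNA samples, with a log2 fold change of −2.24 ± 0.09 (SE). In GENCODE 29, 2535 of the 6615 exonic bases of XAF1 are also exonic in PRAL on the opposite strand. The strand setting of the counting is not given in the sources used here, and the part of this overlap in the XAF1 count was not tested.

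IFI35 and NMI, which bind each other, were lower to different extents. IFI35 (chr17:43006725-43014456) was at 19.8, 21.4 and 26.0 CPM in the controls and at 5.98, 6.20 and 6.77 CPM in the IRF1shRNA samples, a 3.54-fold lower mean (log2 fold change −1.82 ± 0.09, SE). NMI (chr2:151270465-151290057) was at 28.3, 26.7 and 28.5 CPM in the controls and at 12.4, 14.2 and 12.9 CPM in the IRF1shRNA samples, a 2.11-fold lower mean (−1.08 ± 0.07). For both genes the groups did not overlap.

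**Figure D3:**
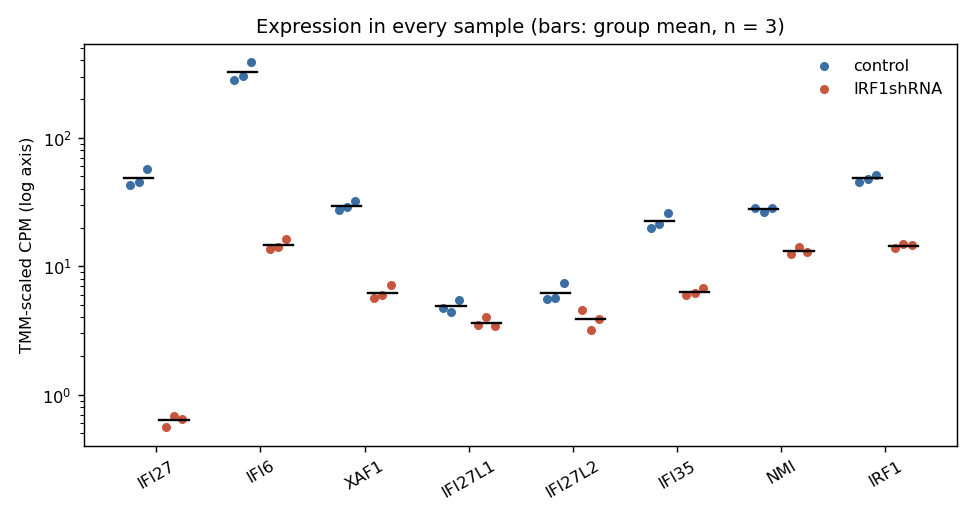
TMM-scaled CPM on a log axis for the 7 genes and IRF1 in each of the 3 control and 3 IRF1shRNA samples, with bars at the group means. The groups are separate for each gene, and the distance between them is widest for IFI27 (43.1 to 57.4 against 0.556 to 0.685 CPM) and narrow for IFI27L1 (4.44 to 5.43 against 3.41 to 4.0 CPM).

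All 7 genes were called lower (adjusted p under 0.05 by edgeR), beside 26.4% of all genes tested. The IRF1shRNA values were below every control value for 7 of 7, beside 29.5% of all genes. Since the genes were selected on this comparison, nothing is read from either count. In the order of the log2 fold changes, IFI27 lay 1.83 below IFI6, and IFI6 2.22 below XAF1. XAF1 and IFI35 were 0.41 apart with a combined SE of 0.13, and NMI and IFI27L2 0.43 apart with a combined SE of 0.14. The IFI27L2 and IFI27L1 values lay 0.22 apart with a combined SE of 0.16, and their order is not clear from these samples. The combined SE treats 2 genes of the same samples as independent, so it tests no order among the members.

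Levels of different genes can be compared only per length. Per kb of all exons annotated in GENCODE 29, IFI6 was at 374 ± 65.4 CPM per kb in the controls (SD, n = 3). IFI27 and IFI35 came next, at 11.7 ± 1.86 and 11.3 ± 1.63 CPM per kb, and on this scale they did not differ beyond their spread. NMI was at 7.99, XAF1 at 4.46, IFI27L2 at 3.73 and IFI27L1 at 2.05 CPM per kb. In the IRF1shRNA samples IFI6 was still first, at 16.9 ± 1.63 CPM per kb, followed by NMI at 3.78 and IFI35 at 3.20 CPM per kb. IFI27 was last of the 7 there, at 0.152 ± 0.0161 CPM per kb, below XAF1 at 0.943 CPM per kb. These levels depend on the length used, since with the median length of coding transcripts in place of all exons, a choice made after seeing the data, IFI27 was at 78.1 CPM per kb in the controls and 1.01 in the IRF1shRNA samples. On that scale IFI27 was still second and last, respectively, but in the controls it lay well above IFI35, at 18.1 CPM per kb. The order of other genes also changed with the length. IFI35 then ranked 5 in the controls and 6 in the IRF1shRNA samples, against 3 in both with all exons, and XAF1 ranked 3 in the controls, against 5, at 27.3 CPM per kb.

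Control replicate 3 had the highest value among the controls for 7 of the 7 genes, whereas it was the highest control for 36.9% of all genes tested. IRF1 itself was also highest in that replicate. Among the IRF1shRNA samples the highest value was in replicate 1 for 1 gene, in replicate 2 for 3 genes and in replicate 3 for 3 genes. Without control replicate 3 the log2 fold change of IFI27 was −6.14 and that of IFI6 −4.30. Each IRF1shRNA sample was below the remaining controls for both genes.

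To determine which genes followed a like pattern, the log2 CPM of each gene was centered on its mean over the 6 samples. The Euclidean distance from IFI27, IFI6 and XAF1 was then taken over the 13059 genes whose mean reached 1 CPM. The distance covers both the size of the difference and its spread over replicates, and no test was made of it. The genes nearest to IFI27 were OAS1 and OAS2, which make 2′-5′-oligoadenylates, at distances of 0.669 and 0.737. IFI44L, MX1 and BST2 followed at 1.21, 1.28 and 1.33. IFI6 was closest to SAMD9L (0.371), CMPK2 (0.513), OAS3 (0.573), FYB1 (0.718) and APOL1 (0.719). Nearest to XAF1 were EPSTI1 (0.148), MEGF6 (0.176), DHX58 (0.220), ATP2B2 (0.258) and DDX58, which encodes RIG-I (0.282). From the lowest log2 fold change, IFI27 ranked 1, IFI6 14 and XAF1 129 of all genes tested. Few genes differed as much as IFI27 or IFI6, so the distances are not compared between these members. Among the members themselves, XAF1 and IFI35 were the closest pair, at 0.5501, and IFI27 and IFI27L1 the farthest apart, at 7.11.

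Genes of apoptosis at the mitochondrion, the pathway to which IFI27, IFI6 and XAF1 are linked, were examined next. The 15 tested genes of the BCL2 family had a median log2 fold change of −0.26, beside −0.0024 for all genes tested. Of these, 9 fell and 2 rose, beside 26.4% of all genes called lower and 24.1% called higher. Among the genes that protect cells from apoptosis, BCL2 fell from 11.4 ± 0.436 to 7.89 ± 0.271 CPM (log2 fold change −0.53 ± 0.07, SE). MCL1 fell by 0.26 and BCL2L2 by 0.33 on the log2 scale. BCL2L1, which encodes BCL-XL, was at 72.7 ± 3.23 CPM in the controls and 76.1 ± 2.65 CPM in the IRF1shRNA samples, with an adjusted p of 0.250 by edgeR. The effectors BAX and BAK1, which form pores in the mitochondrial outer membrane, also fell. BAX was at 71.1 ± 2.29 and 55.6 ± 3.65 CPM (−0.35 ± 0.05), and BAK1 at 39.3 ± 2.59 and 33.7 ± 1.45 CPM (−0.22 ± 0.06). The third effector, BOK, had a log2 fold change of −0.11 and was not called.

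The BH3-only genes, whose products trigger apoptosis by binding other BCL2 proteins, went in both directions. PMAIP1, which encodes NOXA, fell from 18.2 ± 0.401 to 7.26 ± 0.155 CPM (−1.33 ± 0.07), BMF from 1.94 ± 0.234 to 0.713 ± 0.0636 CPM (−1.44 ± 0.16), and BID by 0.43 on the log2 scale. BBC3, which encodes PUMA, rose from 3.65 ± 0.423 to 5.10 ± 0.497 CPM (0.49 ± 0.10). HRK rose as well, at 0.268 to 0.389 CPM in the controls and 0.508 to 0.705 CPM in the IRF1shRNA samples. It was no longer called without control replicate 3 or IRF1shRNA replicate 3, which left 1 BCL2 family gene called higher.

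The transcript of XIAP, which encodes the protein that XAF1 antagonizes, was at 74.6 ± 3.64 CPM in the controls and fell to 60.1 ± 3.05 CPM (−0.31 ± 0.05). Of the 6 inhibitors of apoptosis tested, 2 fell (XIAP and BIRC5, −0.16 ± 0.04) and 2 rose (BIRC2, 0.16 ± 0.05, and BIRC6, 0.14 ± 0.04), with a median of 0.040. These counts stand beside 26.4% of all genes called lower and 24.1% called higher.

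Of the 12 tested genes of mitochondrial release and the apoptosome, 6 fell and 2 rose, with a median of −0.13, beside 26.4% of all genes called lower and 24.1% called higher. SLC25A4, an ADP/ATP carrier of the inner membrane, fell from 24.8 ± 0.705 to 10.7 ± 1.07 CPM (−1.20 ± 0.07). Its relative SLC25A5 fell by 0.41 on the log2 scale. CYCS, which encodes cytochrome c, fell from 510 ± 28.3 to 378 ± 26.4 CPM (−0.43 ± 0.05), and APAF1, the scaffold of the apoptosome, by 0.23 on the log2 scale. HTRA2 (0.25 ± 0.07) and DIABLO (0.27 ± 0.11) encode antagonists of inhibitors of apoptosis and were called higher. For DIABLO the groups overlapped, at 2.88 to 3.33 CPM in the controls and 3.32 to 4.07 CPM in the IRF1shRNA samples (edgeR adjusted p 0.0445). The call of DIABLO was lost under DESeq2, without control replicate 1 or 3 and without IRF1shRNA replicate 1 or 2. Each case left 1 gene called higher.

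Partners and regulators of NMI and IFI35 were taken as a last list, of which 9 genes were tested and reported, 5 fell and 2 rose, with a median of −0.26, beside the same shares of 26.4% and 24.1% of all genes. TRIM21, a ubiquitin ligase, fell from 13.6 ± 0.440 to 3.13 ± 0.105 CPM (−2.12 ± 0.08). IRF7, a regulator of type I IFN genes, fell from 8.14 ± 0.969 to 2.97 ± 0.169 CPM (−1.45 ± 0.10), and STAT6 from 92.4 ± 1.19 to 53.0 ± 1.31 CPM (−0.80 ± 0.04). MYC fell by 0.26 on the log2 scale. STAT4 rose at very low counts, 6 to 11 in the controls against 14 to 47 in the IRF1shRNA samples (2.06 ± 0.42). STAT3 rose by 0.13 ± 0.04, and its call was lost without control replicate 1 or 2, which left 1 gene called higher.

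**Figure D4:**
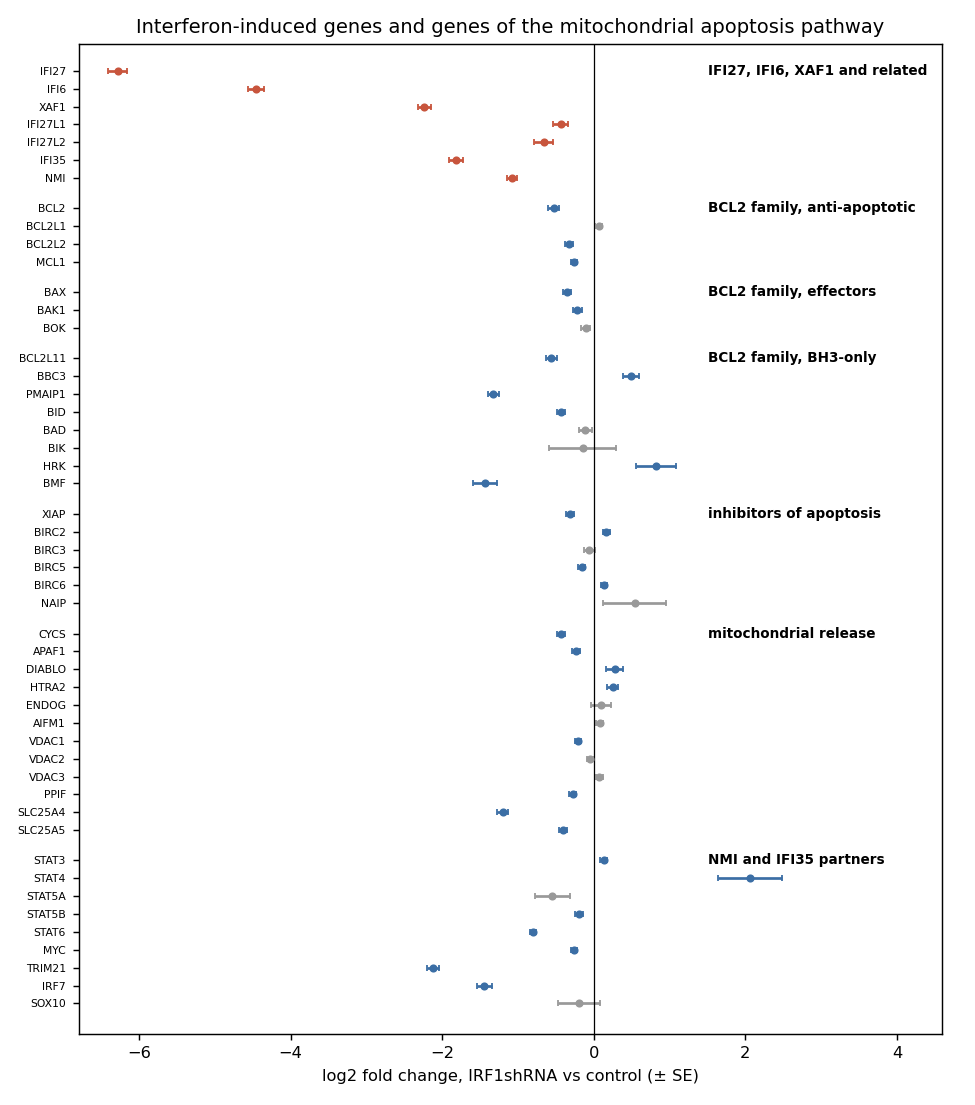
Log2 fold change of IRF1shRNA against control samples with SE for the 7 genes (red) and for the tested genes of the pathway lists (blue, adjusted p under 0.05 by edgeR; gray, not called). IFI27 at −6.28 and IFI6 at −4.46 lie beyond the genes of the lists, which range from −2.12 for TRIM21 to 2.06 for STAT4.

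To determine whether the differences extended to genes beside the members, the 3 nearest protein-coding genes on each side were taken from RefSeq, 30 in all, of which 23 were tested. The 3 genes of the chromosome 14 cluster share the same neighbors. Of the neighbors, 7 fell and 3 rose, beside the 26.4% and 24.1% of all genes called, and their median log2 fold change was 0.0096. Around the cluster 3 neighbors were tested. DDX24, an RNA helicase gene 108 bases from IFI27L1, was at 76.0 ± 3.04 CPM in the controls and 77.3 ± 2.27 CPM in the IRF1shRNA samples (edgeR adjusted p 0.693). OTUB2 and PPP4R4 had log2 fold changes of 0.073 ± 0.17 and 0.12 ± 0.12 (edgeR adjusted p 0.763 and 0.407).

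Around IFI35, VAT1 is 151 bases away and fell from 271 ± 8.25 to 135 ± 4.96 CPM (−1.01 ± 0.04). On the same side RND2 (−0.74 ± 0.09) and BRCA1 (−0.38 ± 0.05) also fell. On the other side RUNDC1 fell by 0.24 on the log2 scale, while RPL27, a ribosomal protein gene 3825 bases away, had a log2 fold change of 0.11 ± 0.05 and was not called (adjusted p 0.0999 by edgeR). Around NMI, RBM43 lies 8607 bases away and fell from 3.40 ± 0.166 to 1.54 ± 0.116 CPM (−1.16 ± 0.12), close to the −1.08 of NMI. RND3 fell by 0.70 and MMADHC rose by 0.32 on the log2 scale, at distances of 782775 and 1682695 bases. On the other side of NMI, RIF1 and NEB had log2 fold changes of −0.042 and 0.16 and were not called.

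Around IFI6, AHDC1 fell (−0.33 ± 0.05) and STX12 rose (0.42 ± 0.04), whereas FAM76A, WASF2 and PPP1R8 were between 0.0069 and 0.033 and were not called. Around XAF1, FBXO39 is 568 bases away and was at 0.432 ± 0.0568 CPM in the controls and 0.403 ± 0.0235 CPM in the IRF1shRNA samples. MED31 rose by 0.30 ± 0.07. Without control replicate 3, 5 neighbors in place of 3 were called higher.

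**Figure D5:**
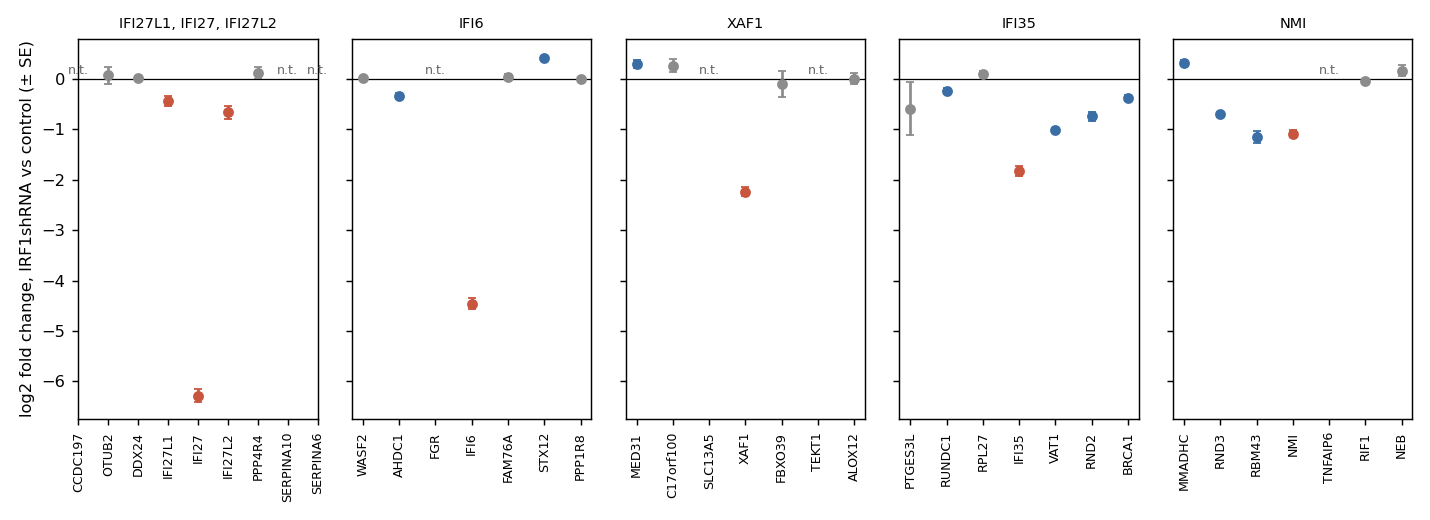
Log2 fold change of IRF1shRNA against control samples with SE for the members (red) and the 3 nearest protein-coding genes on each side in genome order (blue, called by edgeR; gray, not called; n.t., not tested). Genes beside IFI27 and its relatives lie near 0, whereas VAT1 beside IFI35 is at −1.01 and RBM43 beside NMI at −1.16.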

How the data were processed

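Per the labels, RNA of 3 cultures per group was extracted with Trizol and made into libraries with the TruSeq Stranded mRNA kit. The deposited table holds the authors' raw counts for 6 samples, with genes given by symbol. Per the labels, CASAVA 1.8.2, STAR 2.7.9a, featureCounts and DESeq2 1.24.0 were used with GRCh38.p7, and the strand setting and annotation release are not given in the sources used here. Among counts of 2 to 11, 72.1 to 75.2% were even numbers per sample, so mates may have been counted singly, and halved counts were run as an alternative. The total counts were 55143808 to 160436234 per sample. Detection limits of 3 counts cover counting error only.

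Columns were matched to samples by title. Genes were tested with edgeR 4.0.16 (R 4.3.3, quasi-likelihood, TMM, filterByExpr, min.count 10), with group as the single factor. The p-values of 18851 genes were adjusted by Benjamini-Hochberg. SEs of log2 fold changes came from the F statistic. The procedure was checked on data made with known differences. Alternatives were DESeq2 1.42.0, 3 other scalings, 2 other filters, the replicate number as a block, halved counts and leaving out each sample. The members and lists were chosen with earlier results of these data known. Named genes were the members, IRF1, the 3 genes per list and direction with the smallest adjusted p, 8 fixed genes, called neighbors and the 5 nearest profiles of IFI27, IFI6 and XAF1. Genes named outside this rule, such as OTUB2, RPL27 or FBXO39, were chosen after their values were seen. Promoters are from RefSeq (GRCh38.p14) and gene positions and lengths from GENCODE 29. Protein sequences were not used here, and 1 gene of the list of partners is not reported here and was left out of its counts.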

Additional observations from a re-analysis of the deposited data

How the results depend on the processing

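The log2 fold changes of IRF1 and the 7 members kept their sign under all 14 alternative fits, and the members moved by less than 1 SD between replicates. IFI27 ranged from −6.37 to −6.14, IFI6 from −4.55 to −4.30, XAF1 from −2.35 to −2.16, IFI35 from −1.91 to −1.70, NMI from −1.13 to −1.03, IFI27L2 from −0.79 to −0.51 and IFI27L1 from −0.50 to −0.35. All 7 were called lower by edgeR or DESeq2 in each fit. The median of all genes went from −0.0024 to at most 0.049, under scaling by library size only. Numbers of list genes called higher were small and moved. Of the mitochondrial release genes, 4 were called higher under library size only, 1 under DESeq2, and 1 to 3 when a replicate was left out. With at least 1 CPM in at least 3 samples, 1 BCL2 family gene and 1 partner of NMI and IFI35 were called higher, and leaving out a replicate gave 1 to 2 for both lists. For neighbors that range was 3 to 5. BCL2L1 was called higher under library size only (0.12). No sign of pairing by replicate number was seen, as the deviations of same-numbered samples correlated at 0.014, 0.025 and −0.0072. With 3 samples per group, these values do not show whether same-numbered cultures were handled together. With the replicate block, 4490 genes were called higher and 4972 lower, against 4548 and 4971 without it, and each list had the same counts as without it. Among the list genes and neighbors named by the rule, 9 calls were lost and 1 was gained over these fits, and genes not named gained calls as the counts above show. The ISRE core gave 3 members also when limited to bases before the start or made 1 letter shorter.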
